A study of Homo sapiens with 9 samples.

Results

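The baseline transcriptome described here is that of HEK293T cells that had received an empty plasmid and were then deprived of serum. HEK293T is an established human embryonic kidney line that carries the SV40 large T antigen. The 3 arrays of this group were taken, by their labels, out of 9 arrays in 3 groups; the other groups received pRK5 vectors encoding BPIFB4 and are not compared here. The cells were transfected with Lipofectamine 2000 in triplicate, and serum starvation began 24 hours after transfection and lasted 18 hours. All 3 arrays share the plasmid, the transfection and the starvation. The report uses no array of untransfected cells or of cells kept in serum, so the values describe the starved, transfected state and not the effect of either step. Nothing in the labels states that the replicates came from separate cultures, so the SD between arrays may be technical.

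Total RNA was measured on an Illumina bead array with 47310 probes. Each probe has a signal, which is its brightness on a linear scale with no normalization between arrays, and a detection p-value, which compares it with the negative control probes of the same array. A gene was called detected where 1 of its probes had a detection p-value under 0.01 on all 3 arrays, and absent where none of its probes passed on any array. Of 20043 genes with a probe of their own symbol, 9207 (45.9%) were detected, 8965 (44.7%) were absent, and 1871 (9.33%) passed on 1 or 2 arrays only. Of all probes, 14377 (30.4%) passed on all 3 arrays. Counts of detected list members below are to be read beside the 45.9% of all genes. Among protein-coding genes alone the share was 49.9%, which is the closer reference for lists of such genes. A gene's signal is that of its brightest probe. Probes differ in binding efficiency, so the ranks below order probe signals and not numbers of transcripts, and absence means a signal not above background.

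Signals in a dividing cell line are usually led by genes of the translation machinery. Ribosomes are built from ribosomal RNA and ribosomal proteins of a large and a small subunit, and elongation factors bring transfer RNAs to them and move them along the message. Serum supplies growth factors that keep the mTOR and ERK pathways active. In many cells its removal lowers immediate early gene transcription and frees FOXO transcription factors, which act on genes of catabolism and growth arrest. HEK293T cells are known for rapid division and for a mixed character with neuronal as well as kidney features.

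Signals of single genes are given below in the order of replicates 1, 2 and 3. Where a gene is said to be highest or lowest on an array, this is of signals that keep the brightness difference between the arrays. Replicate 1 was the brightest array by median and replicate 3 the dimmest. The median signal over all probes was 119, 112 and 93.1 on replicates 1, 2 and 3, the number of probes passing was 17469, 16468 and 15326, and the lowest passing signal was 141, 133 and 110.4. Of the probes detected on all 3 arrays, 99.9% were brighter on replicate 1 than on replicate 3. The Pearson correlation of log2 signals between 2 arrays, across probes that are not independent replicates, was 0.985 to 0.988. Detected genes had a median mean signal of 471, with the 5th percentile at 155 and the 95th at 3835, whereas absent genes had a median of 99.1 and a 95th percentile of 114. The curve of signal by rank shows that the detected genes pass into the absent ones through those detected on some arrays, with no gap.

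**Figure D1:**
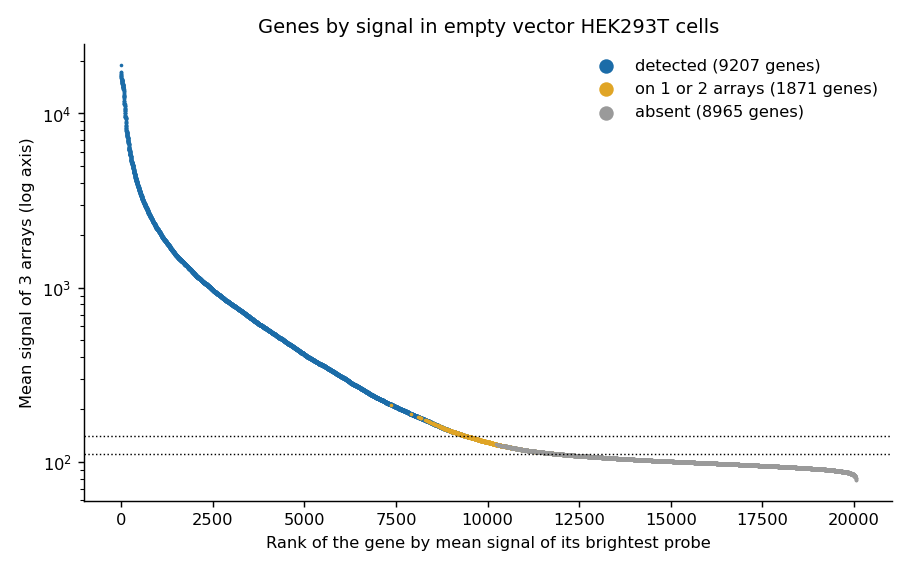
Each point is 1 of 20043 genes, placed by the rank of its brightest probe (x axis) and its mean signal over 3 empty vector arrays (y axis, log scale); dotted lines mark the lowest passing signal of the arrays, at 110.4 and 141. The detected genes range up to 19052 and the absent genes lie in a narrow band near 99.1.

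Genes of the translation machinery led the ranking of named genes. The ranking covers only probes with 1 symbol, which are 10 of the 30 brightest probes. The brightest probe of all, with a mean of 19187, was not among them. Of the 30 genes of highest mean signal, 15 encode ribosomal proteins, and so do 42 of the first 100. EEF1A1, the elongation factor that delivers aminoacyl transfer RNA to the ribosome, ranked first among named genes. It had 20694, 21715 and 14748 on replicates 1, 2 and 3. TPT1, a growth-related protein listed here with the elongation factors, had 18181, 18165 and 11839. EEF2, which moves the ribosome along the message, had 16399.7, 16749.8 and 9712. All 8 genes of the elongation factor list, TPT1 included, were detected, down to EEF1A2 at a mean of 771. EEF1A2 encodes the form known from muscle and neurons.

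Both ribosomal subunits were represented by nearly all of their measured genes. Of the small subunit genes 26 of 26 were detected, with a median mean signal of 13987, and of the large subunit genes 42 of 43, with a median of 12377. The median over all detected genes was 471. RPS6, the small subunit protein that S6 kinase phosphorylates, had 19153, 18825 and 13211. RPS12 had 16310.4, 20086 and 12969. RPS2 had 17296, 18545 and 13332. RPL38, RPL41 and RPL6 led the large subunit with means of 16518 ± 2219, 16199 ± 3209.9 and 16068 ± 3717 (SD, n = 3 each). RPL10, which completes the large subunit late in its assembly, was the exception: its brighter probe gave 123, 105 and 106 and neither of its 2 probes passed on any array. Ribosomal protein genes have many processed copies in the genome, so the signal of a single member may be shared with such copies.

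The start of the transcript is shown for genes of this class among the first 30, because messages of the translation machinery are known to begin with a C followed by an unbroken run of pyrimidines, the 5′ terminal oligopyrimidine tract, through which mTOR controls their translation. The windows cover 10 bases before the listed start and 20 from it on, from RefSeq on GRCh38.p14, with the pyrimidine run from the start in capitals.
EEF1A1, chr6:73521013-73521042, minus strand: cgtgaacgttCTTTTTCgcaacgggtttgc
RPS6, chr9:19380217-19380246, minus strand: gaagttggccCTCTTTTCCgtggcgcctcg
RPL38, chr17:74203668-74203697, plus strand: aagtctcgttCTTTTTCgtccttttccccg
RPS12, chr6:132814559-132814588, plus strand: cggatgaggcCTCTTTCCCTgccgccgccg
RPL41, chr12:56116623-56116652, plus strand: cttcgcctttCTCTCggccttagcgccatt
TPT1, chr13:45341164-45341193, minus strand: ctgagtcggcCTTTTCCgcccgctcccccc
RPS29, chr14:49598691-49598720, minus strand: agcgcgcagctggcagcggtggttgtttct
RPS15, chr19:1438386-1438415, plus strand: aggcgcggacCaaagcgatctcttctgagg
The run was 10 bases long in RPS12, 9 in RPS6 and 5 in RPL41, while RPS29 had none at the listed start and RPS15 a single C. Over the detected ribosomal protein genes with 1 listed start, 39 of 51 (76.5%) had a C at the start followed by at least 4 pyrimidines. The same letters stood at the start in 6.07% of 5322 detected coding genes, in 4.67% of all 10614 measured coding genes with 1 start and in 4.07% of all 35116 windows. The listed start is an annotation and may not be the one these cells use.

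The rest of the first 30 fell into a few roles. RNA28SN5, a copy of the large ribosomal RNA, had 17999, 19784 and 14224. RN7SL1, the RNA of the signal recognition particle, had 13889, 19495 and 12846. Neither RNA is polyadenylated in its mature form. Of the histone genes, H4C3 had 17632, 20169 and 14095 and H3-3A had 18404, 18081 and 11897, and both have close copies that may share the signal. ACTG1, the cytoplasmic gamma actin, had 15866, 19490.5 and 15067. TUBA1A, an alpha tubulin, had 16384, 18358 and 12758. SLC25A5, the mitochondrial carrier that exchanges ADP for ATP, had 18150.2, 19801 and 12192. ATP5F1B, the catalytic beta subunit of the ATP synthase, had 17355, 17923 and 11144. RPL13AP5, PPIAL4A and ANXA2P2, with means of 16869 ± 4004, 16597 ± 3127 and 15524 ± 3194 (SD, n = 3 each), are processed copies of RPL13A, PPIA and ANXA2, so their signal cannot be assigned to the copy or to its parent. FAM177A1, at 15672 ± 3129.9 (SD, n = 3), completed the list with ORC6 and the ribosomal proteins. Not all of the 3 probes of FAM177A1 passed on every array.

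None of the 29 pairs of neighbours among the first 30 differed in mean by more than the smaller of their SDs. These SDs are of signals that keep the brightness difference between the arrays, which all 30 genes share. Within arrays, EEF1A1 was brighter than RNA28SN5 on all 3. The SD was 11.7% to 25.5% of the mean, and every one of these genes was lowest on replicate 3, while 22 were highest on replicate 2. The brightest 100 probes spanned only 1.28-fold in mean signal, and 40 of them carry 1 symbol. ORC6, a subunit of the complex that marks origins of replication, illustrates the limit: one of its 2 probes gave 17159, 18128 and 11676 and the other 994, 849.9 and 502. EEF1A1 likewise had 3 probes with means of 16704 to 19052 and another with 679, 601 and 402. EEF1A1 kept the first place under 7 of 8 alternative settings and left the first 30 under the other, which averages the detected probes of a gene.

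**Figure D2:**
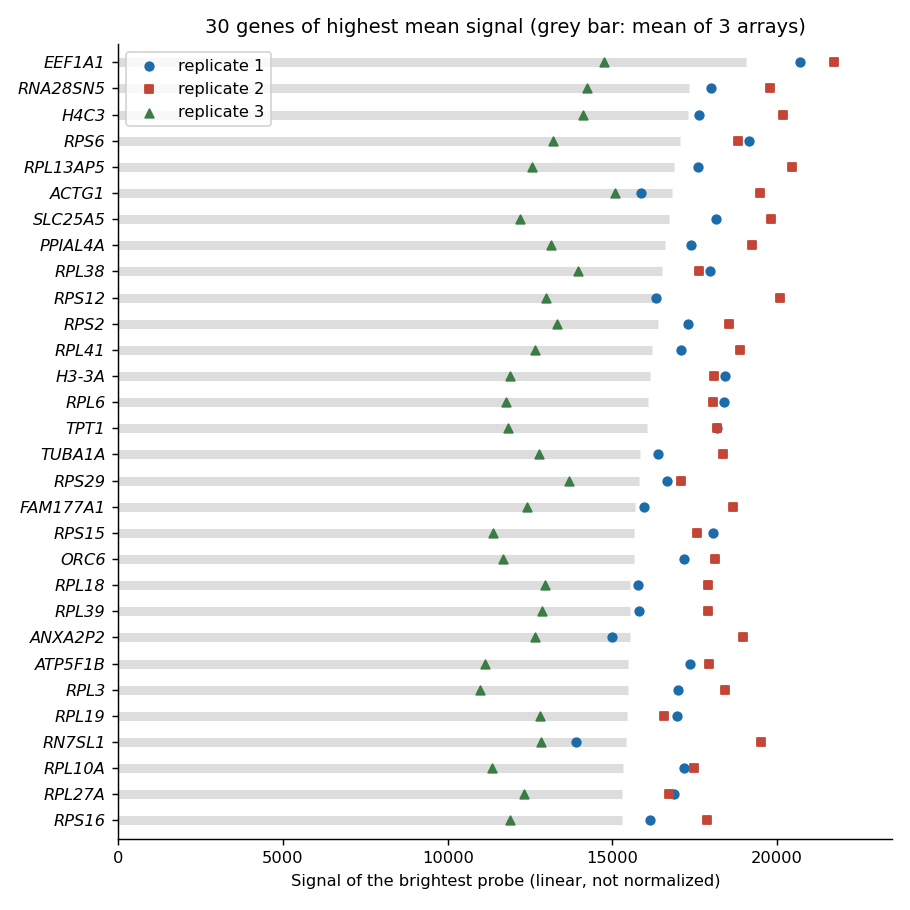
The 30 genes of highest mean signal, in order from the top; the x axis is the signal of the brightest probe (linear, not normalized), markers are replicates 1, 2 and 3, and grey bars are means of 3 arrays. Replicate 3 is lowest for every gene, and the means range from 15298 for RPS16 up to 19052 for EEF1A1, with the replicates of neighbours overlapping.

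Genes of energy metabolism were detected in most measured members, and the absent members were tissue-restricted forms. Of the glycolytic genes 19 of 24 were detected, led by LDHA, which reduces pyruvate to lactate, with 15209, 15374 and 8545. ENO1, an enolase, had 14804, 14402 and 8827. GAPDH had 13214, 13857 and 7653. The absent ones were GAPDHS, HK3, PGAM2 and PGK2, which are known from sperm, blood cells, muscle and testis, and PKLR, the liver and red cell pyruvate kinase. Their mean signals were 91.7 to 105. Other restricted forms were detected: LDHC of testis had 353, 368 and 222, ENO3 of muscle had 202, 189.9 and 113 and ENO2 of neurons had a mean of 155. Of the respiratory chain and ATP synthase genes 37 of 41 were detected, with a median of 4115 over those detected. After ATP5F1B came COX7C, a cytochrome c oxidase subunit, with 11922, 12258 and 7995. ATP5F1A, the alpha subunit of the synthase, had 12168, 10653 and 5959. The 4 absent genes were COX4I2, COX6A2, COX6B2 and COX7A1, forms known from lung, heart and skeletal muscle, and testis, and their means were 89.5 to 99.

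Protein turnover and folding genes were mostly detected. Proteasome genes numbered 28 detected of 32, led by the core subunit PSMA4 with 9239, 8089 and 5829. PSMB1 had 8989.7, 8652 and 4933. PSMA5 had 7184, 5406 and 4412. All 3 are core subunits and were highest on replicate 1. The interferon-induced subunit PSMB8, the thymus form PSMB11 and the testis form PSMA8 were absent, and PSMB9, also interferon-induced, passed on replicate 1 only, with 162, 121 and 90.4. Of the chaperones 26 of 37 were detected. HSP90AA1 led with 15831, 16445 and 12411, followed by HSPD1, the mitochondrial chaperonin, with 14490.3, 13091 and 10049. HSPA8, the constitutive HSP70, had 13952, 11394 and 8201. Among the 11 absent chaperones were the lens proteins CRYAA and CRYAB as well as HSPA12B and HSPA1A. HSPA1A and HSPA1B encode nearly the same protein, and the HSPA1B probe gave 9762, 12965 and 5448, so this pair is reported as uncertain. HSPA5, the chaperone of the endoplasmic reticulum, was detected with 363, 326 and 185.

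Cell cycle genes were detected almost without exception after 18 hours without serum. All 30 genes of the mitosis list were detected, with a median mean signal of 1398 against 471 over all detected genes. BUB3, a spindle checkpoint protein, had 6862, 6673 and 3358. PRC1, which bundles midzone microtubules, had 6675, 5531 and 3520.3. TOP2A, which untangles chromosomes, had 6096, 5506 and 3637. The weakest was MKI67, the proliferation marker, with 158, 168 and 120.3, which is near the passing limit of each array. Of the replication genes 33 of 34 were detected, and only GINS1 was absent, with 136, 105 and 85.1 from 1 probe. After ORC6 came the helicase subunits. MCM7 had 9999, 9289 and 6253. MCM3 had 9575, 7479 and 4574. Of the G1 regulators 23 of 25 were detected. CDK4 had 5238, 4742 and 2967 and its partner CCND2 had 3978, 3504 and 2159.9. CDK2 had 2246, 1905 and 1066. CCNE2 was absent at 95.9, 98.4 and 73.3, and CDKN1C passed on replicate 2 only.

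Many detected mitosis and replication genes share a promoter letter pattern. Nearly all measured genes of these lists were detected, so the pattern describes the lists and not detection on these arrays. The CCAAT box is bound by the factor NF-Y and is known from promoters of cell cycle genes. CCAAT, on either strand in the 250 bases before the start, stood in 30 of 41 (73.2%) of the detected list genes with 1 listed start. Among coding genes with 1 start it stood in 37.9% of 5322 detected and 33.7% of 4424 absent genes. The share was 35.7% of all 10614 measured coding genes with 1 start and 32.0% of all windows. PRC1 is shown as the mitosis gene of highest signal with 1 listed start and such a match, as the 250 bases before its start from RefSeq on GRCh38.p14, with the match in capitals.
PRC1, chr15:90994536-90994785, minus strand: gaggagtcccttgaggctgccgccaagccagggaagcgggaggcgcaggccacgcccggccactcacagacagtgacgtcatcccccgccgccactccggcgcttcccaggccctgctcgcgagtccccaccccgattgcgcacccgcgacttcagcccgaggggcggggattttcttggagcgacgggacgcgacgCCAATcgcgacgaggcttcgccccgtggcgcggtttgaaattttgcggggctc
A match is a description of letters and not a site of binding.

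Genes linked to serum and its withdrawal were detected in part. Of 23 immediate early genes 15 were detected (65.2%, against 45.9% of all genes), among them the transcription factors JUND, MYC and JUN. JUND had 5648, 5288 and 2858. MYC had 3123, 3733 and 1831. JUN had 2651, 2569 and 1696. MYC was highest on replicate 2 and the others on replicate 1. FOS, the classic serum-induced gene, was detected with 188, 213 and 119.9, close to the limit. ARC, EGR3, EGR4 and FOSL1 were among the 7 absent ones, whose means were 99 to 115. Of 20 genes known as FOXO targets or starvation-responsive 16 were detected (80%, against 45.9% of all genes), with a median of 422. BNIP3, a mitophagy receptor, had 2674, 3365 and 1379.8. FOXO3 itself had 2718, 2202 and 1544. DDIT4, an inhibitor of mTOR complex 1, had 1673, 2167 and 763. BNIP3 and DDIT4 were highest on replicate 2 and FOXO3 on replicate 1. FOXO6 and IRS1 were absent. Without cells kept in serum, no direction can be given to any of these levels.

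Of 28 growth factor receptors 15 were detected (53.6%, against 45.9% of all genes) and 10 were absent. IGF2R, which clears IGF2, had 1712, 2142 and 1051. FGFR3 had 1441, 1411 and 720.2, and the TGF-beta co-receptor TGFBR3 had 1388, 964 and 572. EGFR stood close to the limit, at 167, 137 and 117, and only 1 of its 4 probes passed. IGF1R, the IGF1 receptor, was as close, at 162, 139 and 118. ERBB3, ERBB4, FGFR2 and INSR, the insulin receptor, were absent, INSR with 135, 113 and 96.4. A signal near background does not show that the receptor protein was missing.

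Sterol synthesis genes, which SREBP2 drives when cells lack cholesterol, were detected in 20 of 23 cases, with a median of 1097. SQLE, which oxidizes squalene, had 5299, 4469 and 2944. INSIG1, the sterol-regulated brake on SREBP processing, had 4364, 5529.6 and 2307. HMGCS1, an early enzyme of the pathway, had 4031, 4126 and 2026. SREBF2, the gene of SREBP2, passed on replicates 1 and 2 only, with 223, 148 and 87.7. IDI2 and STARD4 were absent. All 3 leading genes were lowest on replicate 3, the array of lowest median signal.

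Large T antigen is known to bind and hold p53 in HEK293T cells. Of 18 measured genes of the p53 list, 16 were detected (88.9%, against 45.9% of all genes). ZMAT3, a p53-induced RNA-binding protein, had 10926, 5709 and 5494. CCNG1 had 4585, 4017 and 2768, while its other probe passed on no array. XPC, a DNA damage sensor, had 1858, 1520.5 and 875. FAS was absent. In the BCL2 family, which shares PMAIP1, BAX and BBC3 with the p53 list, 12 of 17 were detected (70.6%). The survival protein MCL1 had 823, 673 and 554. BCL2L1, another survival protein, had 758, 730.0 and 381. PMAIP1, which antagonizes MCL1, had 685, 545 and 305. BCL2A1, BCL2L10, BIK and BMF were absent, with means of 97.6 to 116.

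BPIFB4, the gene that the study expresses from plasmid in its other groups, was absent in the empty vector cells, with 98.8, 98.5 and 83.8 from its 1 probe. It belongs to the BPI fold family of lipid-binding proteins, of which 1 of 13 measured genes was detected. That gene was PLTP, the phospholipid transfer protein of plasma, with 779, 634 and 354. BPI, BPIFA1, BPIFA2, BPIFB1, BPIFB2, BPIFB3, BPIFB6, BPIFC, CETP and LBP were absent, and BPIFA3 passed on replicate 3 only. The means of the 11 absent members were 89.8 to 106.

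Genes of pathways in which BPIFB4 has been studied were detected unevenly. The 14-3-3 adaptor proteins were detected in 6 of 7 cases, led by YWHAQ with 9633, 8789.8 and 5978. YWHAZ had 7427, 7031 and 4079. YWHAH had 6625, 5308 and 3369. These genes encode the theta, zeta and eta forms. SFN, the epithelial form, was absent. Of the genes of the PERK branch and the eNOS pathway 13 of 20 were detected (65%, against 45.9% of all genes). ATF4, the transcription factor translated when eIF2 is phosphorylated, had 13419, 12654 and 7836. EIF2AK1, an eIF2 kinase, had 4107, 4295 and 2376. AKT1, which phosphorylates eNOS, had 1703, 1329 and 911. EIF2AK3, the gene of PERK, was detected with 232, 191 and 143. NOS3, the gene of eNOS, was absent with 107, 99.8 and 79, as were NOS1, NOS2, CXCL12 and PPP1R15B. CXCR4, the CXCL12 receptor, passed on replicates 1 and 2 and missed on replicate 3, with 209, 221 and 108.

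Angiogenic ligands and receptors were detected in 8 of 28 cases (28.6%), against 45.9% of all genes. VEGFB had 1474, 1677 and 874. EFNB2 had 947, 786 and 483. Its receptor EPHB4 had 519, 406 and 257. VEGFA was detected with 184, 238 and 130.3. The absent members included ANGPT2, DLL4, FGF1 and FLT1, and their means were 88.1 to 112. Another 6 genes passed on some arrays.

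**Figure D3:**
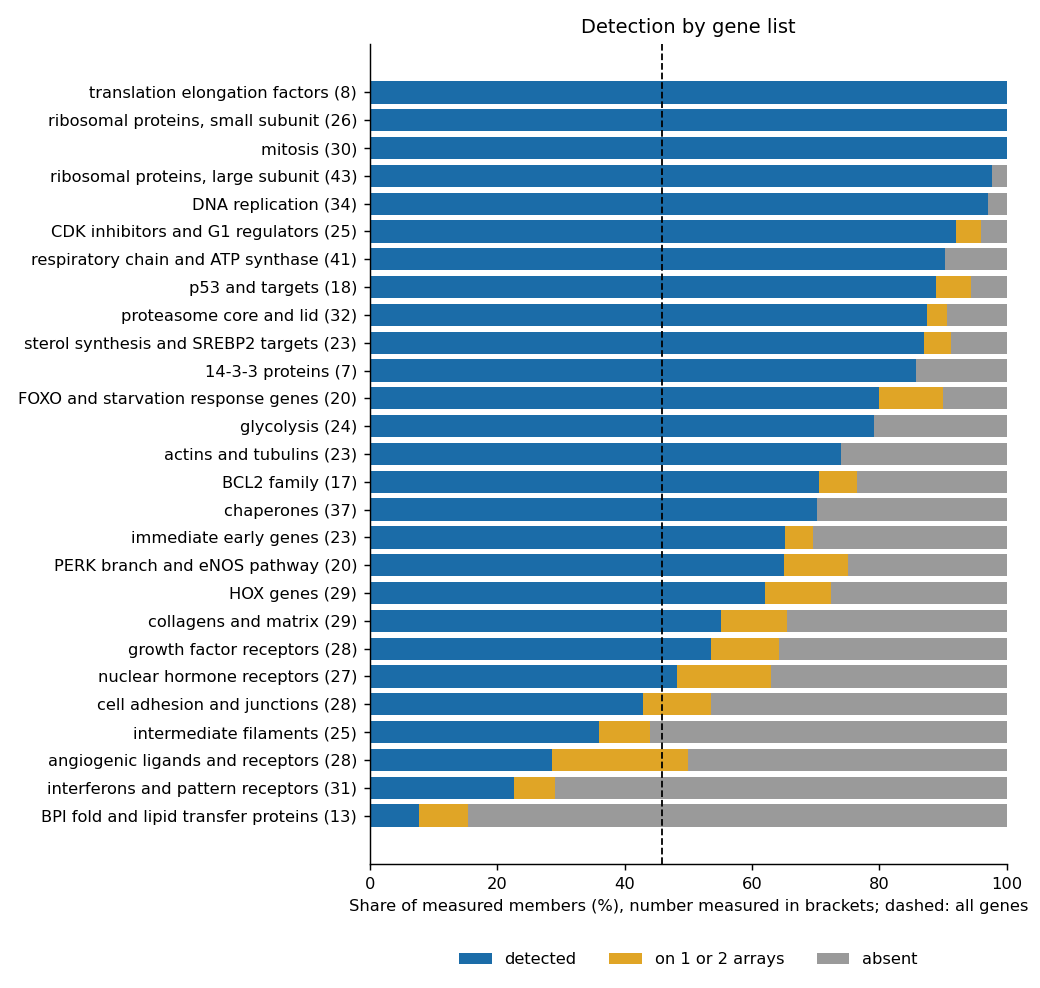
Share of the measured members of 27 gene lists that were detected, detected on 1 or 2 arrays, or absent (x axis, percent; number measured in brackets); the dashed line is the 45.9% of all genes that were detected. Ribosomal, elongation and mitosis lists lie near the full width, and the interferon and BPI fold lists lie at 22.6% and 7.69%.

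The cytoskeletal genes were detected with vimentin and neurofilament genes and few keratins. Actin and tubulin genes were detected in 17 of 23 cases (73.9%, against 45.9% of all genes), with TUBA1B at 15538, 17795 and 11025 after ACTG1 and TUBA1A. The muscle actins ACTC1 and ACTG2 and the tubulins TUBA3C and TUBA4A were absent. Alpha tubulin genes are close copies, so their split is uncertain. Of the intermediate filament genes 9 of 25 were detected (36%, against 45.9% of all genes). VIM, vimentin of mesenchymal cells, had 8919.6, 8019 and 4791. LMNB2, a nuclear lamin, had 2925, 2338 and 1833. KRT10, a keratin, had 1130.3, 846 and 552. The neurofilament genes NEFM and NEFL and the related INA were detected as well. DES, GFAP, KRT1 and KRT13 were absent, and KRT8, a keratin of simple epithelia, passed on replicate 1 only, with 147, 127 and 109. Its partner KRT18 was detected with 231, 200.3 and 127.

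Matrix and adhesion genes followed. Of the collagen and matrix genes 16 of 29 were detected (55.2%, against 45.9% of all genes), led by the laminin chain LAMC1 with 2107, 2872 and 1447. LAMA5, another laminin chain, had 1138, 1183 and 571. COL4A5, a basement membrane collagen, had 908, 832 and 494. COL1A2, COL4A3, COL6A2 and COL6A3 were absent, and so was FN1, fibronectin, at 112, 105 and 91.8 from the brightest of its 3 probes, none of which passed on any array. Of the adhesion and junction genes 12 of 28 were detected (42.9%, near the 45.9% of all genes). CTNNA1, alpha catenin, had 2993, 2785 and 1503. ITGB1, the common beta integrin, had 2408, 2064 and 1381. CDH2, N-cadherin, had 2403, 1810.3 and 1342. CDH1, E-cadherin, passed on replicates 1 and 2 only, with 141, 146 and 100.3, and CDH3, CDH11, CLDN1 and CLDN3 were absent.

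Regulators of position and hormone response were mixed. HOX genes, which set position along the body axis, were detected in 18 of 29 cases (62.1%, against 45.9% of all genes). HOXC6 had 1256, 1116 and 699. HOXC4 had 1197, 904 and 524. HOXB5 had 1014, 853 and 497. All 3 were highest on replicate 1 and lowest on replicate 3. HOXB1, HOXB4, HOXC12 and HOXC5 were absent. Only 1 of the 4 HOXC6 probes passed on all 3 arrays, and another passed on replicate 1. Of the nuclear hormone receptors 13 of 27 were detected (48.1%, near the 45.9% of all genes), with PPARG, a regulator of fat metabolism, at 1132, 1141 and 649.6, and the orphan receptor NR2F6 at 1063, 1139 and 664. The related NR2F1 had 1046, 667 and 573. ESR1, ESR2, HNF4G and NR1I3 were absent.

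Innate immune genes were largely absent. Of the interferon and pattern receptor genes 7 of 31 were detected, against 45.9% of all genes. Those detected were the interferon receptor chains IFNGR2, IFNGR1, IFNAR2 and IFNAR1 and the signalling proteins IRF3, MAVS and IRF9. IFNGR2 had 1953, 1496 and 1236. IFNGR1 had 1716, 1795 and 905. IFNAR2 had 445, 399 and 253. The 22 absent genes had means of 84.9 to 114 and included CGAS, which senses cytosolic DNA, IFIH1, a sensor of double-stranded RNA, and the interferons IFNA1 and IFNA2. CGAS gave 103, 89.3 and 82.5.

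Cell type markers were checked against the kidney label of the line. Markers of the developing kidney were detected in 3 of 11 cases. CITED1, a marker of nephron progenitors, had 1976, 1926 and 1198. EMX2 had 367, 370.2 and 228. EYA1 had 323, 322 and 217, while its other probes passed on no array. PAX2 and PAX8, the defining factors of the lineage, were absent. PAX2 gave 95.5, 96.7 and 80.6 and PAX8 gave 113, 99.6 and 74.5. WT1, SIX2, SALL1 and GATA3 passed on some arrays. Markers of differentiated kidney segments were detected in 1 of 12 cases, by PODXL of podocytes with 555, 457 and 318, while transporters such as SLC12A1, SLC12A3 and SLC34A1 were absent. The other PODXL probes passed on no array. The developmental count is 27.3%, against 45.9% of all genes, and became 5 without replicate 3 and 5 at a detection p-value under 0.05. In bulk RNA, fewer cells of a type and less RNA per cell cannot be told apart.

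Neural markers were detected in 7 of 15 cases (46.7%), a share near the 45.9% of all genes. STMN3 had 1450.0, 1878 and 916, and the neurofilament gene NEFM had 814, 719 and 379. NEFL, the light neurofilament, had 367, 366 and 263. INA, a further neuronal filament, had 670.3, 456 and 307. SOX2 had 243, 214 and 157. TUBB3, the neuronal beta tubulin, had 211, 221 and 149.9. SYP, synaptophysin, had 177, 166 and 113. Each of these markers was lowest on replicate 3. DCX, ELAVL4, GAP43, NES, SOX11 and STMN2, which mark young neurons or their progenitors, were absent. None of the 11 adrenal and chromaffin markers was detected; TH and DBH, which make catecholamines, and STAR and CYP17A1, which make steroids, were absent, and CYP11A1 passed on replicate 1 only.

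Markers of other cell types were near background with few exceptions. No endothelial marker of 12 and no muscle marker of 8 was detected, and ESAM and TNNI3 each passed on some arrays. Of the smooth muscle and fibroblast markers 2 of 12 were detected. ACTA2, smooth muscle actin, had 606, 499 and 321. TAGLN had 172, 224 and 119. Of the blood markers 2 of 12 were detected. CD68 had 483, 432 and 318. CD14 had 197, 179.8 and 134, while PTPRC, the common leukocyte antigen, and the haemoglobin genes were absent. TAGLN, CD68 and CD14 were each detected by 1 probe, and their other probes did not pass on every array. ALB was the liver marker detected of 8, with 383, 224 and 171, by 1 of its 2 probes (the other passed on replicate 1), and AFP, TTR and APOA1 were absent. Of the pluripotency markers 2 of 7 were detected. LIN28B, an inhibitor of let-7 maturation, had 2295, 2068 and 1427, and the other was SOX2, while POU5F1, NANOG and LIN28A were absent. KRT10 was the squamous marker detected of 7. Over all marker lists, 18 of 114 measured genes were detected, against 45.9% of all genes.

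**Figure D4:**
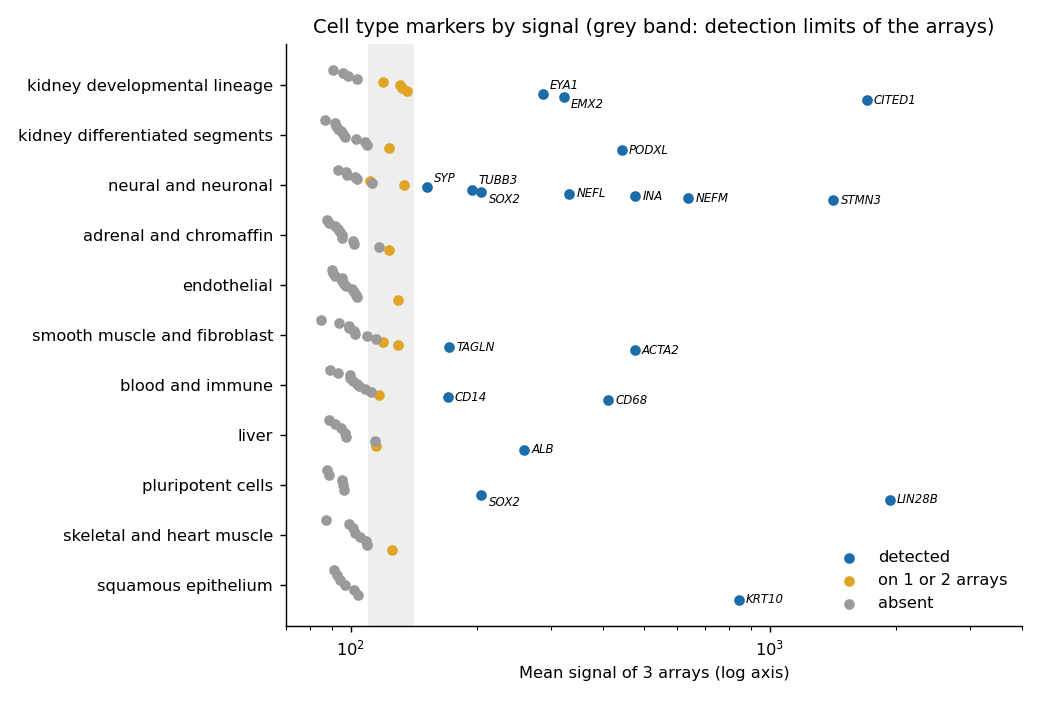
Mean signal over 3 arrays (x axis, log scale) of each measured marker in 11 cell type lists; blue points were detected on all 3 arrays, yellow on 1 or 2, grey on none, and the grey band spans the passing limits of the arrays, 110.4 to 141. LIN28B, CITED1 and STMN3 stand furthest to the right, and the adrenal, endothelial and muscle lists hold no blue point.

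Detection differed between RNA classes. Protein-coding genes were detected in 8861 of 17771 cases (49.9%), long noncoding RNAs in 95 of 798 (11.9%), small nucleolar RNAs in 82 of 279 (29.4%), small nuclear RNAs in 9 of 16 (56.2%) and miRNA genes in 7 of 560 (1.25%). SNHG5, a snoRNA host gene, was among the brightest long noncoding RNAs with 6449, 6302 and 4271. SNHG1 had 3203, 3113 and 1762. RNU6-1, a spliceosomal RNA, had 4103, 2403 and 2556. The arrays were not made to read mature miRNAs, which are too short for their probes, so the 7 miRNA genes are given as a count only. These genes outside the lists were chosen after their values were seen.

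Families of genes with a shared symbol stem ranged from fully detected to almost wholly absent. All 48 MRPL genes, which encode large subunit proteins of the mitochondrial ribosome, were detected, as were 49 of 54 EIF genes of translation initiation. Zinc finger genes with the ZNF stem were detected in 247 of 472 cases (52.3%) and solute carriers in 162 of 364 (44.5%). Both shares lie near the 49.9% of all protein-coding genes. At the other end, 3 of 49 keratins, 1 of 80 keratin-associated proteins and 1 of 368 olfactory receptors were detected. The last was OR2A42, which has a near-identical copy, with 162, 160.2 and 132, and the keratin-associated gene was KRTAP10-11, with 194, 179.8 and 124. Interleukin genes and their receptors were detected in 15 of 83 cases (18.1%, against 49.9% of protein-coding genes). They included the cytokine gene IL18 with 7307, 5817 and 3462. IL10, an anti-inflammatory cytokine, had 2736, 2046 and 1220.2. By chromosome, between 42.0% (chromosome 11) and 57.4% (chromosome 15) of coding genes were detected.

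Promoter letters, which the detection rule did not use, differed between detected and absent genes. CpG dinucleotides are known to cluster at promoters of widely expressed genes, and tissue-restricted genes more often have a TATA box. Among coding genes with 1 listed start, the RefSeq window of 300 bases on GRCh38.p14, from 250 before the start to 50 from it on, held a median of 28 CpG in 5322 detected genes, 22 in 868 genes detected on some arrays and 9 in 4424 absent genes. The 25th and 75th percentiles were 21 and 35 CpG for detected genes and 3 and 24 for absent genes. Windows with 5 CpG or fewer made up 2.37% of detected and 39.5% of absent genes. TATAAA, between 40 and 20 bases before the start on the gene's strand, stood in 1.62% of detected, 7.91% of absent and 4.47% of all measured genes with 1 start, and in 2.30% of all 35116 windows. The olfactory receptor genes held a median of 1 CpG in 282 windows.

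A detected and an absent gene show this difference in letters, as the 250 bases before the start with CpG in capitals. ACTG1 is among the 30 brightest genes, and BPIFB4 is the gene the study expresses from plasmid.
ACTG1, chr17:81512800-81513049, minus strand: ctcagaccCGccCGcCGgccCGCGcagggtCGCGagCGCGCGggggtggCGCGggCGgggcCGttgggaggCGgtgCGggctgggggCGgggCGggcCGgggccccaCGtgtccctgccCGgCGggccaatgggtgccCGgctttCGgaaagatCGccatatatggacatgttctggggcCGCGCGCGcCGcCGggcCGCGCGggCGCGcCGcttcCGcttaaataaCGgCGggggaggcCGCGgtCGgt
BPIFB4, chr20:33079393-33079642, plus strand: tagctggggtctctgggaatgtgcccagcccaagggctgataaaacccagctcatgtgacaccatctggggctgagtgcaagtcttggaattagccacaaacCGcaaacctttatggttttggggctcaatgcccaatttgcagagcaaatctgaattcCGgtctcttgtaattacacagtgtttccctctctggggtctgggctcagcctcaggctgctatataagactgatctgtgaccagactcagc
The printed bases of ACTG1 hold 43 CpG and those of BPIFB4 hold 2. AFP, a fetal liver gene that was absent with 103, 93 and 88.4, is shown as the first absent marker by alphabet with a TATA match, which is in capitals and begins 29 bases before the start.
AFP, chr4:73435971-73436220, plus strand: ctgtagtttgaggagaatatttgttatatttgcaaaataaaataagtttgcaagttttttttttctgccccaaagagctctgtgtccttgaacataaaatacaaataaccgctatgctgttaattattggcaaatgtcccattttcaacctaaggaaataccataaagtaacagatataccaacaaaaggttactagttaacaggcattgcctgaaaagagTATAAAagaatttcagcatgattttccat
Its printed bases hold 1 CpG. BPIFB4 lies on chromosome 20, ACTG1 on chromosome 17 and AFP on chromosome 4.

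**Figure D5:**
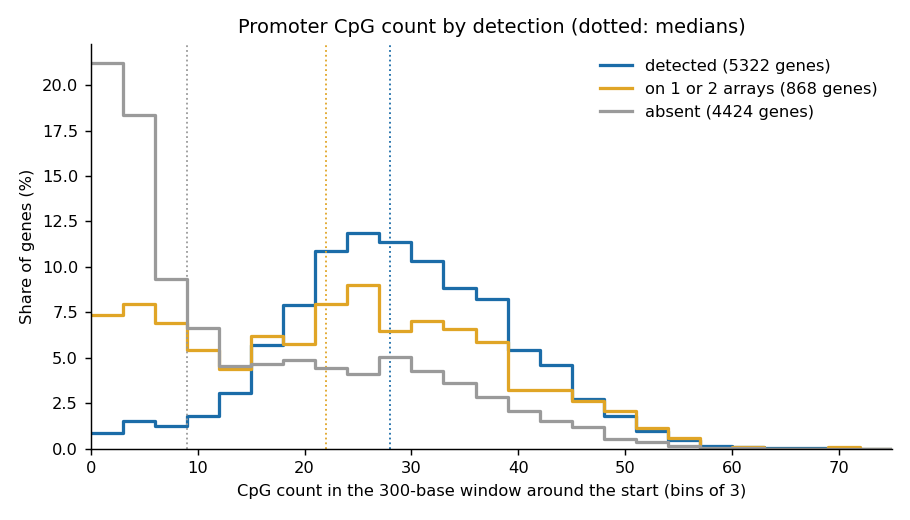
Share of genes (y axis, percent) by CpG count in the 300-base promoter window (x axis, bins of 3) for 5322 detected genes, 868 detected on 1 or 2 arrays and 4424 absent genes; dotted lines are medians. The detected genes peak near their median of 28, and the absent genes are most frequent below 6 CpG.

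Variation between the arrays was measured on log2 values after normalization of the 3 arrays together (neqc). The SD between arrays over detected genes had a median of 0.16 on the log2 scale, with 5th and 95th percentiles of 0.041 and 0.44, and exceeded 0.5 in 242 genes (2.63%). It was 0.23 in the 2302 detected genes of lowest signal and 0.12 in the 2302 of highest signal. Small and large subunit ribosomal protein genes had medians of 0.062 and 0.085, mitosis genes 0.11, and immediate early genes 0.29. Immediate early genes had a median signal of 357 over those detected.

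The largest SD belonged to SLC2A3, a glucose transporter, with signals of 279.7, 489 and 132 and an SD of 1.05 on the log2 scale. TMEM79, UNC5A, C11orf96 and NECAB3 were likewise highest on replicate 2. TMEM79 had 282, 457 and 136. UNC5A, a netrin receptor, had 153, 254 and 116. C11orf96 had 388, 573 and 162. SNAR-A1, a small noncoding RNA, had 12649, 3623 and 6893. SCARNA8, a guide RNA of Cajal bodies, had 655, 234 and 287. MTHFS, an enzyme of folate metabolism, had 805, 284 and 429, and SNAR-A1, SCARNA8, MTHFS and GTF2IRD2B were lowest on replicate 2. The 8 detected genes classed as other noncoding RNA had a median deviation of -0.63 log2 on replicate 2 from their mean of 3 arrays, while coding genes had 0.011. POLR2E, an RNA polymerase subunit, GTF2IRD2B and NECAB3 completed the 10 genes of largest SD. POLR2E gave 153, 166 and 190.5, and its log2 values after neqc were 5.66, 6.30 and 7.55. Its signal on replicate 1 was close to the lowest passing signal there, 141. UNC5A was likewise close to the limit on replicates 1 and 3, so these SDs rest on signals near background. GTF2IRD2B gave 202, 149.6 and 193 and NECAB3 gave 165, 176 and 92.7. The NECAB3 values come from its brightest probe, which did not pass on replicate 3, where the lowest passing signal was 110.4. NECAB3 was classed detected through another of its probes.

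Detection depended on the probe for many genes. Of 6687 genes with several probes, 1499 had all probes detected, 2230 some and 2958 none, and in 13 detected genes the brightest probe was not the one that passed. The threshold itself fell in a dense part of the distribution. At the largest detection p-value inside it, 0.00909, stood 124 genes, of which the first by alphabet were ABCG4, ADAMTS9, ADCK5, ALPL and ANO8, with means of 142, 146, 130.2, 146 and 159. At the smallest value outside it, 0.0104, stood 94 genes, beginning with ADRA2B, AFF2, AGAP4, AMY2A and ARHGAP11A, with means of 139, 136, 131, 138 and 148. The 2 sets of means overlap.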

How the data were processed

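The authors deposited a non-normalized table with a signal intensity and a detection p-value per probe and array, per the file headers. BeadStudio made the values, per the submitters' processing notes, which give no version, and no genome build or normalization is given in the sources used here. The detection p-value deposited by the authors moves in steps of 1 in 770, as 770 negative controls would give. A second deposited intensity table, the value table, was a linear function of the first for these 3 arrays and was used only as an alternative. Arrays were assigned by label and all deposited columns used were mapped. Probes were named from the platform annotation, with symbols updated through gene IDs for 30066 of 30105 probes that have 1 symbol. Another 8 have several and 17197 none, and both kinds were left unnamed.

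From these values were computed the detection classes, mean and SD of signals (pandas 2.3.3, numpy 2.4.6, Python 3.11.15), and, for the spread between arrays only, neqc with an offset of 16 in limma 3.58.1 under R 4.3.3, with negative controls inferred from detection p-values. There is 1 group, so no test was made and no p-value across samples is given. The number of arrays limits the precision. The steps were tested on simulated data with 20043 genes of 3 arrays, where 100% of expressed and 0% of silent genes were classed detected. The simulated expressed genes all lay well above background, so this test does not cover genes near the detection limit. The members and the gene lists were chosen with earlier results of these data known. Genes named are the 30 of highest signal, per gene list the 3 brightest detected and up to 4 absent members by alphabet, per marker list up to 6 detected members, the 10 of largest SD, 5 on each side of the threshold, and the BPIFB4 list. Others, among them MKI67, FOS, FN1, RPL10, HSPA5, EGFR, INSR, NOS3, KRT8, KRT18, LDHC, ENO2, ENO3, CXCR4, SREBF2, VEGFA and further absent markers, were chosen after their values were seen. Promoter windows and starts come from RefSeq on GRCh38.p14; 14436 of 17771 coding genes had a window and 10614 had 1 start. Shares by detection class use those 10614, and shares of all windows use the 35116 windows of the table. Windows of human chromosome 8 were left out of the printed sequences, and no such filter was applied to the shares.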

Additional observations from a re-analysis of the deposited data

How the results depend on the processing

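The count of 9207 detected genes was 10176 at a detection p-value under 0.05, 7195 at a p-value of 0, 9999 with 2 arrays required, 9194 by the brightest probe alone, 6977 with every probe required and 9263 to 9800 without 1 array. The absent genes numbered 6912 at 0.05 and 9144 to 9567 without 1 array. Of the 30 brightest genes 16 remained when a gene's detected probes were averaged, against 23 to 28 under the other settings and 24 to 28 without 1 array, and 8 remained under all 8 alternatives. The 481 detected list members became 482 to 503. The median SD between arrays, 0.16 log2, was 0.28 when raw signals were only scaled to a common median, and 0.11 to 0.15 without 1 array. It was 0.11 without replicate 2. The values without 1 array are SDs over 2 arrays, whose median is lower than that of SDs over 3 at equal spread. A lower value without 1 array therefore cannot be read as less variation. The difference in median CpG between detected and absent genes was 19, and 20 at 0.05. Of 152 list counts under alternatives 147 stayed within 1.5 times. The exceptions were kidney developmental markers, 5 in place of 3 at 0.05 and without replicate 3, kidney segment markers, 2 in place of 1 at 0.05, and endothelial and muscle markers, 1 each at 0.05. The cause was not tested. Of 76 named absent genes, 20 were no longer absent at 0.05, and 2 of those, NOS2 and COL6A2, became detected. Of 128 named detected genes 26 were lost when every probe was required, FAM177A1, FOXO3, CCNG1 and PPARG among them. At a p-value of 0, 15 were lost, SOX2, TUBB3, TAGLN and CD14 among them. Signals near background limit what these 3 arrays can show as absent. No paired analysis was possible because a single group of arrays was described.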
